A study of Mus musculus with 4 samples.

Results

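Pax3, Pax7, Alx1, Alx4, Prrx1, Prrx2 and Uncx are 7 genes for paired-type homeodomain proteins, the family to which the precipitated factor MIXL1 belongs. They were taken by name from 21523 protein-coding genes, and the binding sites assigned to them are the deposited MIXL1 peaks that reach to within 100 kb of the span of each gene. There were 12 such peaks among the 9403 listed on the 20 assembled chromosomes used here (the autosomes and X), at 5 of the 7 genes. A peak within 100 kb was found for 52.8% of all protein-coding genes. The peaks come from chromatin immunoprecipitation with sequencing (ChIP-seq), in which DNA held by a tagged protein is pulled down with an antibody and sequenced.

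The study used mouse epiblast stem cells, cultured pluripotent cells that resemble the epiblast after implantation, carrying a doxycycline-inducible FLAG-tagged Mixl1. Before differentiation they grew on irradiated feeder fibroblasts from mouse embryos, in medium with bFGF (10 ng/mL) and activin A (20 ng/mL). Embryoid bodies were then formed in serum, and doxycycline (1 µg/mL) was present for the 24 h before collection at 2 days. All 4 libraries share this treatment: anti-FLAG M2 precipitates gave 2 of them and input chromatin the other 2, and cells without doxycycline were not analysed here. The tagged factor was expressed from an induced transgene, and the labels do not say how many lines were used. The authors' file is 1 list of peak positions for the series, with no score or height and no column per library, so the depth is unknown, no value has a replicate error, and differences between libraries cannot be shown. RNA was not measured, so neither the activity of the genes nor the markers of the cells could be checked.

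Homeodomain proteins bind short A- and T-rich DNA built around the letters TAAT, and paired-type homeodomains can bind as pairs to a palindrome made of TAAT and its reverse complement. PAX3 and PAX7 carry a paired domain as well as a homeodomain, and act in the precursors of skeletal muscle, in the dorsal neural tube and in neural crest. PRRX1 and PRRX2 are regulators of limb and facial mesenchyme. ALX1 and ALX4 belong to the aristaless group, which acts in the mesenchyme of face and limb. UNCX marks the posterior part of each somite and is needed for parts of the vertebrae.

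Promoter sequence could be set beside the peaks at 4 of the 7 genes, for which the RefSeq promoter table (GRCm38.p6, the assembly that mm10 denotes) holds an entry: Pax7, Prrx1, Prrx2 and Uncx. Its windows run from 250 bases before the start site to 50 bases after it. Prrx1 was the gene of these 4 with a peak on this window. Among all protein-coding genes in the promoter table, 1.56% had a window that a peak overlapped. The 250 bases before the start sites of Prrx1 and Uncx are shown, because Prrx1 is the promoter with a peak and Uncx is the one of the other three that holds TAATTA and has no peak. Both are written 5′ to 3′ on the strand of the gene, with each TAATTA in capitals. These letters read the same on both strands, and each strand holds the homeodomain core.
Prrx1 (minus strand, chr1:163313651-163313900): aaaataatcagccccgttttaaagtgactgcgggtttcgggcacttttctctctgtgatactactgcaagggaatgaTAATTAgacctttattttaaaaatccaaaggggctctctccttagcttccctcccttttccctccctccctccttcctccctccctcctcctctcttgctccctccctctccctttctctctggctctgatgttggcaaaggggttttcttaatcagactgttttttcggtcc
Uncx (plus strand, chr5:139543648-139543897): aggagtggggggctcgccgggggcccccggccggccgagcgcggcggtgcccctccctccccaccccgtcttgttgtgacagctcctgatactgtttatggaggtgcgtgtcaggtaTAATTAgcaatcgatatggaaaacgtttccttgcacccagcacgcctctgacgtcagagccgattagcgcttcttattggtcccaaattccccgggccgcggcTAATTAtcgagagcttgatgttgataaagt
In Prrx1 the peak covered the 167 bases of this stretch nearest to the start site and ran on past the start site into the gene. The single TAATTA of Prrx1, at 163313818 to 163313823 and 173 bases before the start site, begins at the base directly beyond the edge of the peak, which ends at 163313817. The promoter of Uncx holds TAATTA 2 times, 133 and 30 bases before the start site, and its nearest peak lay 37.1 kb away from the gene. The windows of Pax7 and Prrx2 hold no TAAT, while that of Prrx1 holds 4 and that of Uncx 5. These were counted on both strands, where each TAATTA counts as 2 TAAT. In Prrx1 only the TAAT nearest to the start site lies under the peak, and the others lie beyond its upstream edge.

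Over all 32619 promoter windows in the table on these chromosomes, 5.25% hold TAATTA, 58.0% hold TAAT, and 7.04% hold TAATCC, the form preferred by bicoid-type homeodomains. The palindrome with 3 free bases between TAAT and its reverse complement stands in 0.491% of them, and the form with 2 free bases in 0.386%. Both strands were searched and a longer motif also counts for the TAAT inside it. None of the 4 windows of the genes described here holds TAATCC or either palindrome. The letters TAATTA stood in 11.7% of the 453 windows that a peak overlapped and in 5.16% of the others, and the palindrome with 3 free bases in 1.99% (9 windows) and 0.469%. The core TAAT stood in 72.6% and 57.8%, the palindrome with 2 free bases in 0.662% (3 windows) and 0.382%, and the bicoid-type form in 8.17% and 7.02%. Base composition was lower in G and C in the overlapped windows, with a median of 51.7% against 53.0%, and its part in these shares was not tested. A gene can have several windows, and these can overlap, so the windows counted are not all separate promoters. A match is a description of letters, not a site shown to be bound.

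**Figure D1:**
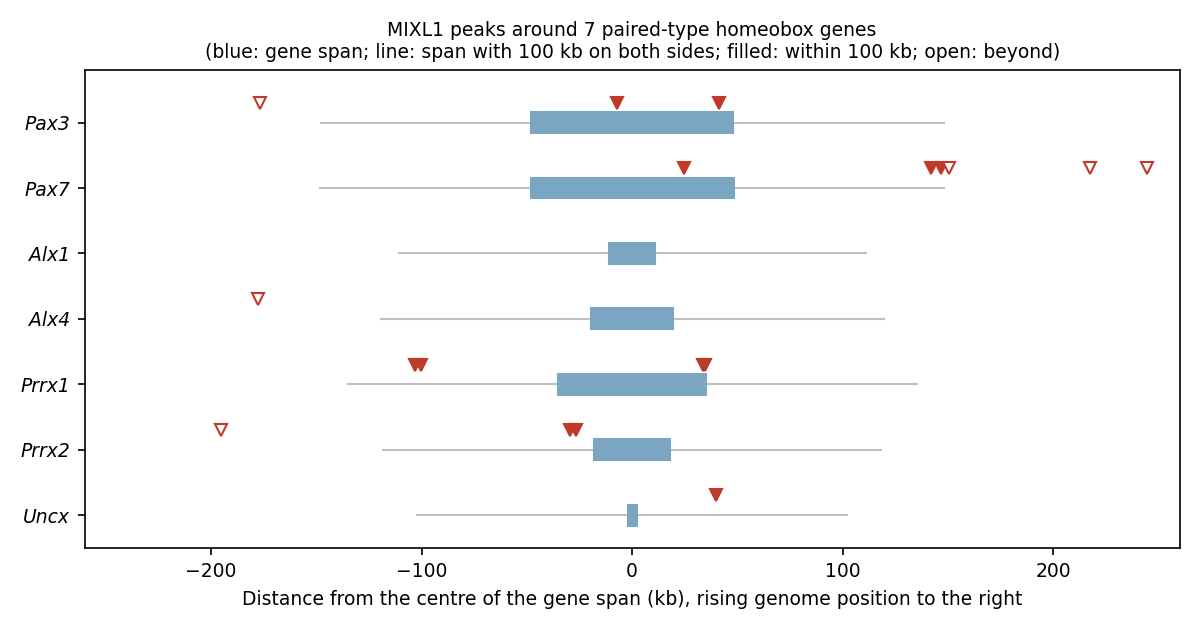
Positions of MIXL1 peaks (triangles) around the 7 genes, in kb from the centre of each gene span, with the span in blue and a line for the span with 100 kb on both sides; filled triangles lie within 100 kb and open ones beyond. Pax3 and Prrx1 have 2 peaks each on the span, Pax7 has 1, and Alx1 and Alx4 have none within the line.

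Pax3 (chromosome 1, 78101267 to 78197136, mm10) had 2 peaks, and both lay inside the gene. The wider one, of 591 bp, at 78141536 to 78142126, started 40.3 kb from the lower end of the 95.9 kb span. The other, of 321 bp, at 78190355 to 78190675, ended 6.46 kb short of the higher end. The 2 peaks were 48.2 kb apart, so they did not form a close pair. Having 2 or more peaks within 100 kb, as Pax3 and Prrx2 did, was found for 26.7% of all protein-coding genes. The next peak outside was 129 kb below Pax3, beyond the 100 kb limit. The gene table gives spans without exons, so exonic and intronic positions could not be told apart here or at the other genes.

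Pax7 (chromosome 4, 139737059 to 139833530, minus strand) had 3 peaks in 2 places. A peak of 585 bp, at 139809411 to 139809995, lay inside the gene, with its centre 23.3 kb downstream of the start site. The other 2, of 483 and 462 bp, at 139927126 to 139927608 and 139931770 to 139932231, lay upstream of the start site, 93.6 and 98.2 kb outside the span. They were 4.16 kb apart, overlapped the noncoding genes Gm1667 and 4933427I22Rik, and were nearer to another protein-coding gene, Klhdc7a (34.6 and 29.9 kb), than to Pax7. One more peak of the same row, of 319 bp, lay at 102 kb, just outside the limit, where 98.2 kb was just inside it. Having 3 or more peaks within 100 kb was found for 13.7% of all protein-coding genes. The single peak within the gene is the part of the Pax7 count that holds at any window width.

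A peak inside the span was found for Pax3, Pax7 and Prrx1, against 12.6% of all protein-coding genes. Long genes offer more room: among the 612 genes with spans between 90 and 110 kb, the size of Pax3 and Pax7, 34.2% held a peak and 12.6% held 2 or more. Over all protein-coding genes 3.83% held 2 or more. Pax3, with 2 peaks inside, belongs to the 12.6%, and Pax7, with 1, to the 34.2%.

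Prrx1 (chromosome 1, 163245119 to 163315145, minus strand) had 4 peaks within 100 kb of the span, in 2 close pairs. This was the most of the 7 genes at that setting, but the rank depends on it. Pax7 had more within 200 kb (6 against 4) and within 100 kb of the start site (3 against 2). With peaks within 10 kb counted as 1 locus, Prrx1, Pax3 and Pax7 had 2 each, and with the wider 50% of the peaks Prrx1 had 0. The first pair lay at the start of the gene. Its peak of 363 bp, at 163313455 to 163313817, covered the start site at 163313650, and its peak of 243 bp, at 163314812 to 163315054, lay 0.995 kb further upstream and 0.091 kb inside the higher end of the annotated span. The second pair, of 395 and 269 bp, at 163177032 to 163177426 and 163179722 to 163179990, lay 67.7 and 65.1 kb beyond the other end of the gene, 2.30 kb apart. Prrx1 was the nearest protein-coding gene of all 4. Having 4 or more peaks within 100 kb was found for 7.1% of all protein-coding genes, and for 8.27% of those with spans between 50 and 90 kb. With 2 peaks inside the span it stood with 5.38% of genes of that size. All 4 peaks of Prrx1 were narrower than the median peak, and 0.936% of all peaks were narrower than the one of 243 bp.

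Prrx2 (chromosome 2, 30845064 to 30881251, plus strand) had 2 peaks, both upstream and none inside. They were 360 bp wide, at 30833652 to 30834011, and 720 bp wide, at 30836172 to 30836891, and lay 11.1 and 8.17 kb before the span, 2.16 kb apart. Both were nearer to Asb6, at 5.35 and 7.87 kb, than to Prrx2. The margin for the wider peak was 7.87 against 8.17 kb. The window of Prrx2 was the most crowded of the 7, with 7 other protein-coding genes. Prrx1 and Prrx2, close relatives in the family, thus differed in where their peaks lay: at the start site and far downstream in Prrx1, and only upstream in Prrx2.

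Uncx (chromosome 5, 139543865 to 139548179, plus strand), a gene of 4.32 kb, had 1 peak. At 759 bp it was the widest of the 12, and it lay at 139585230 to 139585988, 37.1 kb beyond the downstream end of the gene. No other peak lay within 345 kb of it, and Uncx was its nearest protein-coding gene. Its distance was below the median of 89.3 kb over all protein-coding genes, of which 32.4% were as near to a peak or nearer.

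The aristaless-group genes had no peak within 100 kb. Alx4 (chromosome 2, 93642434 to 93681341) had its nearest peak at 158 kb, at 93484151 to 93484667, and that peak lay 21.2 kb from Cd82. Alx1 (chromosome 10, 103007847 to 103029549) had its nearest peak 1167.2 kb away, at 104196751 to 104197069 and 0.229 kb from Gm4340. Only 3.55% of protein-coding genes (763 of 21523) were as far from a peak as Alx1 or farther, and 10 of the 1001 on chromosome 10. For Alx4 that share was 35.8%. A list of called peaks shows where signal passed the authors' threshold, so weaker binding at these genes could not be seen.

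**Figure D2:**
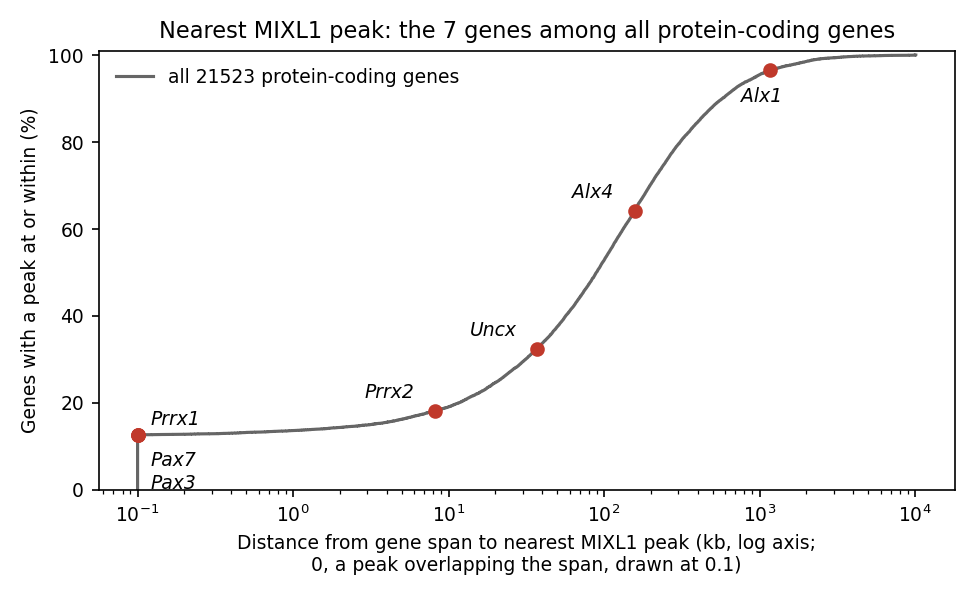
Share of the 21523 protein-coding genes (grey line, percent) with a peak at or within the distance on the x axis (kb from the gene span, log axis, 0 drawn at 0.1), with the 7 genes as red points. Pax3, Pax7 and Prrx1 sit at 0, Prrx2 and Uncx lie below the median of 89.3 kb, and Alx4 and Alx1 lie above it.

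In sum over the genes, 5 of the 7 genes had a peak within 100 kb, where the share over all protein-coding genes was 52.8%, and 4 of 7 had one within 10 kb, where it was 19.1%. Their median distance to the nearest peak was 8.17 kb, against 89.3 kb over all genes, and their median count was 2 peaks against 1. The median span over all protein-coding genes was 17.4 kb, and all of the 7 except Uncx were longer. Longer spans offer more room for a peak, and the part of length in these values was not tested. These are descriptions of 7 chosen genes, and no test was run on them. Chromosomes differed in how often genes had a peak within 100 kb, but the genes lie on chromosomes near the overall share, with 55.2% on chromosome 1 (Pax3, Prrx1), 44.9% on chromosome 2 (Alx4, Prrx2), 59.6% on chromosome 4 (Pax7), 53.7% on chromosome 5 (Uncx) and 49.1% on chromosome 10 (Alx1). None lies on chromosome 12, where 91.2% of genes had one.

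Counts of so few peaks carry wide counting errors. Per Mb of window, Prrx1 had 14.8 peaks (95% exact Poisson interval 4.04 to 37.9), Pax7 10.1 (2.09 to 29.6), Prrx2 8.47 (1.03 to 30.6), Pax3 6.76 (0.819 to 24.4) and Uncx 4.89 (0.124 to 27.3). The windows of Alx4 and Alx1 had 0, which allows up to 15.4 and 16.6 per Mb. All 7 intervals include 4.71 per Mb, the value over the pooled windows of all protein-coding genes. The median over those genes was 3.30 per Mb, which lies below the interval of Prrx1 and inside the others. The 7 intervals overlap one another. The order of the genes by peak density is therefore not resolved by these counts. Peaks also cluster, and the intervals treat them as independent.

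The 12 peaks were often paired. Of them, 8 (66.7%) had another peak within 10 kb: all 4 at Prrx1, both at Prrx2 and the distal 2 at Pax7. Among all 9403 peaks the share was 30.3%. In both shares neighbouring peaks count each other, so they are not independent. The peaks inside Pax3, inside Pax7 and beyond Uncx stood alone. Widths ran from 243 to 759 bp with a median of 428.5 bp, against a median of 485 bp and quartiles of 350 and 726 bp over all peaks. A width at or above the overall median was found for 4 of the 12: the wider one at Pax3, the one inside Pax7, the nearer one at Prrx2 and the one at Uncx. Of the 12, 8 had the gene described as their nearest protein-coding gene, while the distal pair of Pax7 and the pair of Prrx2 did not.

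**Figure D3:**
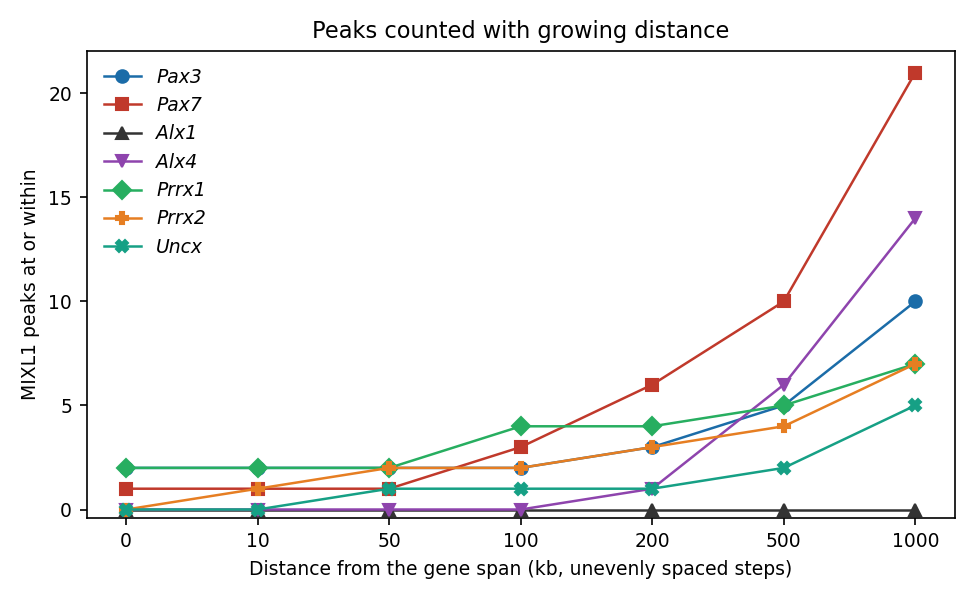
Number of peaks (y axis) at or within growing distances from each gene span (x axis, kb, unevenly spaced steps), 1 line per gene. Pax7 climbs from 3 peaks within 100 kb to 21 within 1000 kb and Alx4 from 0 to 14, while Alx1 stays at 0 throughout.

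The surroundings of the genes differed beyond 100 kb. Pax7 had 6 peaks within 200 kb, 10 within 500 kb and 21 within 1000 kb. Alx4, with none within 100 kb, had 6 within 500 kb and 14 within 1000 kb. Prrx1 had 4 within 200 kb and 7 within 1000 kb, so most of its wider neighbourhood's peaks lay close to it. Pax3 had 5 within 500 kb and 10 within 1000 kb, Prrx2 4 and 7, and Uncx 2 and 5. Alx1 had 0 within 1000 kb, where 4.51% of protein-coding genes had no peak in that distance.

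The wider family gives the setting. Of 35 listed paired-type homeobox genes 34 matched the gene table, and 25 of them (73.5%) had a peak within 100 kb, against 52.8% of all protein-coding genes. Without the 7 genes described above the count was 20 of 27, and 14 of 27 had a peak within 10 kb, against 19.1% of all protein-coding genes. Gsc, an organiser gene, had 10 peaks, Hesx1, a gene of the anterior neural plate and pituitary, had 9, and Phox2a, which specifies autonomic neurons, had 5. Dmbx1 had 4, like Prrx1, and Otx2, a head organiser gene, had 3, like Pax7. Gsc lies on chromosome 12, with the share of 91.2% given above. Mixl1 itself had 1 peak, at 6.42 kb. Of the 20 family genes with a promoter window, Prrx1 and Phox2a had one that a peak overlapped. Among all protein-coding genes with such a window the share was 1.56%.

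**Figure D4:**
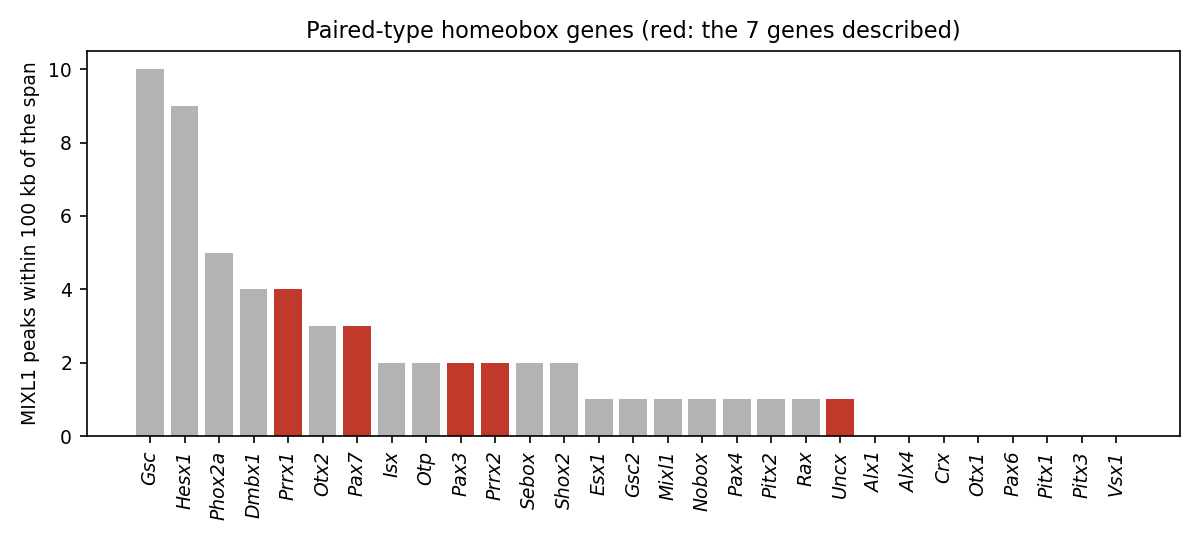
MIXL1 peaks within 100 kb of the span (y axis, number) for 29 paired-type homeobox genes of the 34 counted, sorted by count, with the 7 genes described in red. Prrx1 (4) and Pax7 (3) stand among the 7 genes shown with 3 or more peaks, Gsc is the highest shown with 10, and Alx1 and Alx4 stand among those with none.

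Genes of the family shown in the plot of counts by gene and equal to one of the 7 in both counts, within 100 kb and inside the span, were Otp, Sebox and Shox2 for Prrx2. For Uncx they were Esx1, Gsc2, Mixl1, Nobox, Pax4 and Rax. For Alx1 and Alx4 they were Crx, Otx1, Pax6, Pitx1, Pitx3 and Vsx1, all without a peak in reach. No other gene shown matched Pax3, Pax7 or Prrx1 in both. This likeness rests on counts in a single list and covers no second condition.

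Genes that act beside the 7 were counted in the same way, against the share of 52.8%. Among the other Pax genes, which lack a whole paired-type homeodomain, 3 of 5 had a peak within 100 kb, with 7 at Pax2, a gene of kidney and midbrain, and 2 at Pax9, a gene of the sclerotome. Pax9 lies on chromosome 12, where 91.2% of genes had a peak within 100 kb. Of 22 genes of the muscle and neural crest programmes of Pax3 and Pax7, 14 (63.6%) had one. Msx1, a neural plate border gene, led with 8 peaks, and Six4, a partner in muscle precursors, had 4 and lies on chromosome 12. The muscle determination genes Myf5 and Myod1 had none within 100 kb, with nearest peaks at 898 and 130 kb. In the list of somite formation and polarity, the setting of Uncx, 8 of 12 had a peak, with 4 at Lfng, a modulator of Notch, and 3 at Efnb2, an ephrin ligand. In the mesenchyme list, the setting of Alx and Prrx, 8 of 15 (53.3%) had one, with 3 at Meis2 and 2 at Gli3. Of 10 fibroblast genes, listed because the cells had been grown on fibroblasts and Prrx genes are mesenchymal, 3 had a peak within 100 kb, with 3 for Thy1 and 1 for Fbn1. The nearest of these lay 83.4 kb from Thy1 and 10.1 kb from Fbn1. No fibroblast gene listed had a peak within 10 kb, against 19.1% of all protein-coding genes. The mesenchyme list stood near the overall share and the fibroblast list below it, and no list was tested. Peaks of the tagged factor near fibroblast genes, or their absence, do not show whether feeder cells were present.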

How the data were processed

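FLAG-MIXL1 ChIP-seq was made from 2 precipitated and 2 input libraries. The tools named, per the submitters' processing notes, are MACS2, SAMtools, Bowtie2 and CASAVA 1.8.2, and the build is mm10. The peak cutoff, any filters and the handling of replicates are not described. The name of the deposited list carries abbreviations that may refer to a filter and a cutoff, and no source explains them. The authors deposited 1 list of 9598 peaks with positions and no other value, so no test on signal was possible.

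Peak starts were turned to 1-based positions and compared with gene spans from NCBI RefSeq (GRCm38.p6) on 20 chromosomes. Genes placed in the first 3 Mb of a chromosome were not used, since entries of unplaced scaffolds carry such positions. A peak counted for a gene when any base lay within 100 kb of its span, and could count for several genes. Shares of all protein-coding genes are given as background, with 95% exact Poisson intervals for densities. Start sites came from the RefSeq promoter table. Motifs were searched on both strands. Sequences of peaks and of proteins were not used here. The distance and count routine was checked on simulated peaks.

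The 7 genes and all lists were chosen with earlier results of these data known, so no list was tested. The text names the 7 genes, the protein-coding genes nearest to their peaks, family genes with 3 or more peaks, and the 2 genes with most peaks of each other list; Myf5 and Myod1 were added after their values were seen. Some genes that this rule takes are left unnamed, though counts over lists include them. Alternatives are given at the end. Python 3.11.15, numpy 2.4.6, pandas 2.3.3, scipy 1.17.1 and matplotlib 3.10.9 were used.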

Additional observations from a re-analysis of the deposited data

How the results depend on the processing

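The count of 5 genes with a peak stayed between 4 and 6 under all 9 alternatives (4 of the 4 genes with a start site when that was the anchor), which changed the window, the anchor, the overlap rule, the peaks used or the assignment. The number of their peaks was 12 in the report, 6 within 10 kb and 4 with the wider 50% of the peaks, and lay between 8 and 18 otherwise. Prrx1 lost all 4 of its peaks with the wider 50%, its nearest peak then lying at 294 kb, and that of Alx1 moved to 1691.7 kb. Assigned only to the nearest protein-coding gene, Prrx2 kept 0 peaks and Pax7 kept 1. Measured from the start site, the nearest peak lay at 23.0 kb for Pax7, 8.48 kb for Prrx2 and 41.3 kb for Uncx; Pax3, Alx1 and Alx4 were not measured this way. The background share of 52.8% (Wilson 95% interval 52.1 to 53.5) was 19.1% within 10 kb, 37.5% within 50 kb, 70.3% within 200 kb, 47.2% around start sites, 32.2% with the wider 50% of the peaks, 50.8% without 1-Mb windows of 20 or more peaks and 49.1% with genes of every type. Family genes with a peak numbered 25 of 34 in the report, 18 within 10 kb, 22 within 50 kb and 30 within 200 kb. They numbered 17 with the wider 50% of the peaks and 18 when peaks were assigned only to the nearest protein-coding gene. Around the start site the count was 16 of the 20 that had one, and it was 24 or 25 of 34 under the other alternatives. Leaving out a replicate could not be run, and no paired analysis was possible because the single peak list carries no replicate. Depth per library is unknown.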
